A study of Mus musculus with 2 samples.

Results

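The cells described here are the bone marrow cells (BMCs) that carried transcripts of *Prss34* and *Mcpt8*, the genes of a pair of serine proteases stored in the granules of mouse basophils. A cell was included when its library held at least 10 unique molecular identifiers (UMIs, each marking 1 captured transcript) summed over both genes. This chose 52 of 9933 cells, 23 of 6271 in the WT library and 29 of 3662 in the S1P Cko library, all from cells with at least 200 detected genes. The values of *Prss34* and *Mcpt8* therefore describe the choice and are not a result.

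BMCs came from the crushed and collagenase-digested forelimbs and hindlimbs of C57BL6/J mice at postnatal day 21, after lysis of red blood cells. The WT carried the floxed exon 2 of *Mbtps1* on both alleles (S1P f/f) and no Cre, and the Cko carried the same alleles with the *Osx1-GFP::Cre* transgene (S1P f/f;*Osx-Cre*), whose Cre is driven by the promoter of osterix, a transcription factor of bone-forming cells. *Mbtps1* encodes site-1 protease (S1P), which activates the SREBP and ATF6 transcription factors. No group with Cre and without the floxed alleles is analysed here, and whether the deletion took place in any of the chosen cells was not measured. Each genotype is 1 library, so genotype and library cannot be told apart and no p-value is given for any comparison between them. Cells of 1 library are not replicates. Intervals are exact 95% intervals that cover counting error only.

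Basophils are rare granulocytes made in the bone marrow, which bind immunoglobulin E (IgE) through the high-affinity receptor FcεRI and release histamine, lipid mediators, proteases and cytokines when that receptor is cross-linked. They share much of this equipment with tissue mast cells, which hold chymases and tryptases that basophils largely lack. GATA2 and C/EBPα are among the transcription factors that act in their development from granulocyte and monocyte progenitors, which also give rise to neutrophils and eosinophils.

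Most basophil markers were measured in these cells, while most mast cell markers could not be read. Of 10 basophil marker genes, 9 are listed in each library (*Il4* is not), and all 9, the pair used for the choice included, were at least 4-fold higher in the chosen cells than in the other cells of both libraries. The background for this is 1.36% of 7181 listed genes in the WT and 1.16% of 6735 in the Cko, and since the cells were chosen by their own transcripts the count is a description. Of 10 mast cell markers, 8 are not listed in either library (*Cma1*, *Mcpt1*, *Mcpt2*, *Mcpt4*, *Tpsb2*, *Tpsab1*, *Tpsg1* and *Mrgprb2*). The lowest maximum of any listed gene was 4 UMIs in a cell, so a gene that is not listed may have been below that level and cannot be given as 0. The receptor gene *Kit*, which mature mast cells keep, had 8 UMIs in 6 of the 23 WT cells and 7 UMIs in 3 of the 29 Cko cells, and *Cpa3*, the last marker, is shared with basophils. The mast cell part of the name could therefore not be checked, and the cells are called below by the genes they carried.

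The sequences before the start sites of 6 of these genes are shown because they are the genes of the choice itself, of the granule carboxypeptidase and of 3 receptor chains described below, and because *Gata2*, which encodes a GATA factor, was itself among the 9 markers. The set holds every marker gene in which the letters searched were found, so it is not a sample of the markers. Each run is the RefSeq promoter window of GRCm38.p6, from 250 bases before the annotated start to 50 after it, read 5′ to 3′ on the strand of the gene. Capitals mark the letters AGATAA or, where the match lies on the opposite strand, TTATCT, a form of the sequence that GATA factors bind.

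Prss34 (granule serine protease; chr17:25298144-25298443, plus strand): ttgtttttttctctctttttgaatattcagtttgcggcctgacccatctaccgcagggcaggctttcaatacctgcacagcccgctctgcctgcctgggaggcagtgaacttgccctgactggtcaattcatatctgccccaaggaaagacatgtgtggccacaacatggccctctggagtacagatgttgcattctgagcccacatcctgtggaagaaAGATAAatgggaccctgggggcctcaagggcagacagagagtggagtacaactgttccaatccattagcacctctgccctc
Mcpt8 (granule serine protease; chr14:56085148-56085447, minus strand): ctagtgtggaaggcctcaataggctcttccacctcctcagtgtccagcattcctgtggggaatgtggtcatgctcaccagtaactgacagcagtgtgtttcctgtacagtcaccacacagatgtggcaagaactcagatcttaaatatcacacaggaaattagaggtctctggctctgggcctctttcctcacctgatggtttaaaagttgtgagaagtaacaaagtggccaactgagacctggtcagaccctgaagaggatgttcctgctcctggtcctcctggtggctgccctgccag
Cpa3 (carboxypeptidase A3 of granules; chr3:20242132-20242431, minus strand): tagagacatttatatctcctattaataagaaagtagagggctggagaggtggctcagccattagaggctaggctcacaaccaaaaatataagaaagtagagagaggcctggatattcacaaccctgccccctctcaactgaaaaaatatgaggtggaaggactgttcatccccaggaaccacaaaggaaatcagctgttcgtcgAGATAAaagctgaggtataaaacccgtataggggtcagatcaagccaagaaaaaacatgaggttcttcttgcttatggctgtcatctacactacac
Ms4a2 (FcεRI β chain; chr19:11623670-11623969, minus strand): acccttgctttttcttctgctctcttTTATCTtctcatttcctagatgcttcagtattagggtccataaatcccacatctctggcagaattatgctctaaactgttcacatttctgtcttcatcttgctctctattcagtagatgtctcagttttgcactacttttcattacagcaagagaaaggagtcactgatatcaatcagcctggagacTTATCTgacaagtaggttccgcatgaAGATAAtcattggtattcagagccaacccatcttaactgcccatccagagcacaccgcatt
Cd200r3 (activating receptor; chr16:44943428-44943727, plus strand): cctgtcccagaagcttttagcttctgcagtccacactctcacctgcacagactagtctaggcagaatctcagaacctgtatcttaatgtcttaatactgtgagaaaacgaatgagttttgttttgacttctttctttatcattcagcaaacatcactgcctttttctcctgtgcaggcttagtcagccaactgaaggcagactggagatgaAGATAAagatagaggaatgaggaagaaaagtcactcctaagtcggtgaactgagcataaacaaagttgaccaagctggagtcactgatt
Fcer1a (FcεRI α chain that binds IgE; chr1:173227180-173227479, minus strand): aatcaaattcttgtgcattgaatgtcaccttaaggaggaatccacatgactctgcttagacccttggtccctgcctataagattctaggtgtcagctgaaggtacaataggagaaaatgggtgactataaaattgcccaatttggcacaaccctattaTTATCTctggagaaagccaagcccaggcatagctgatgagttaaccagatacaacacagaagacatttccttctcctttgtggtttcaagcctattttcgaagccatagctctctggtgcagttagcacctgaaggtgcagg

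The letters were found once in the windows of *Prss34*, *Cpa3*, *Cd200r3* and *Fcer1a*, 3 times in that of *Ms4a2* and not in that of *Mcpt8*. The first base of the match lay 31 bases before the start of *Prss34*, 46 before that of *Cpa3*, 39 before that of *Cd200r3* and 92 before that of *Fcer1a*. In *Ms4a2* the matches began 224, 37 and 11 bases before the start. Over the 13 windows of the 10 basophil markers, 5 held a match, each in a different gene, and the windows of *Cyp11a1*, *Gata2*, *Hdc* and *Il4* held none. Of all 32851 promoter windows of this length, 3672 (11.2%) held it. A match is a description of the letters and not a bound site.

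*Prss34* (17:25298394-25300165, GRCm38) and *Mcpt8* (14:56082166-56085273) were confined to few cells at high level. In the WT the sum of both genes was 12 UMIs in the lowest chosen cell, 207 in the median cell and 854 in the highest, which is 0.108%, 2.88% and 15.3% as the lowest, median and highest share of a cell's own UMIs. In the Cko it was 13, 206 and 1245 UMIs, and the shares were 0.0893%, 3.91% and 19.7%. The ranges of the libraries overlapped and their medians were close. The chosen cells held 97.5% of all *Prss34* UMIs and 92.2% of all *Mcpt8* UMIs in the WT, and 98.7% and 94.2% in the Cko.

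Few cells of either library lay near the limit, but they were not few beside the 23 WT and 29 Cko chosen cells. The lowest cells inside it had 12 and 14 UMIs in the WT and 13 and 21 in the Cko, and the highest outside it had 7 and 8. There were 12 WT and 24 Cko cells with 3 to 9 UMIs, and 10 and 16 of them had at least 10 UMIs of *Elane*, the neutrophil elastase gene of promyelocytes. At least 1 UMI of either gene was found in 4.42% of the other cells of the WT and 6.03% of those of the Cko. The share was 2.82% and 4.28% in cells with B cell genes, which should lack both proteases, at median depths of 6221 and 6970 UMIs per cell against 7832 and 6985 in the chosen cells. The highest sum in a cell with B cell genes was 2 UMIs in the WT and 7 in the Cko, the latter in a cell that also carried other basophil markers. Values of 1 or 2 UMIs were read as background.

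*Mcpt8* was found in every chosen cell and *Prss34* was not. *Mcpt8* had 12, 103 and 318 UMIs (lowest, median, highest) in the WT cells and 12, 115 and 621 in the Cko cells. *Prss34* had 0, 78 and 536 in WT cells and 0, 76 and 743 in Cko cells, and was absent from 5 of 23 WT and 8 of 29 Cko cells. Those 13 cells were chosen on *Mcpt8* alone. Single cells had more *Prss34* than *Mcpt8* UMIs in 11 WT and 8 Cko cells and the reverse in 12 and 21.

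**Figure D1:**
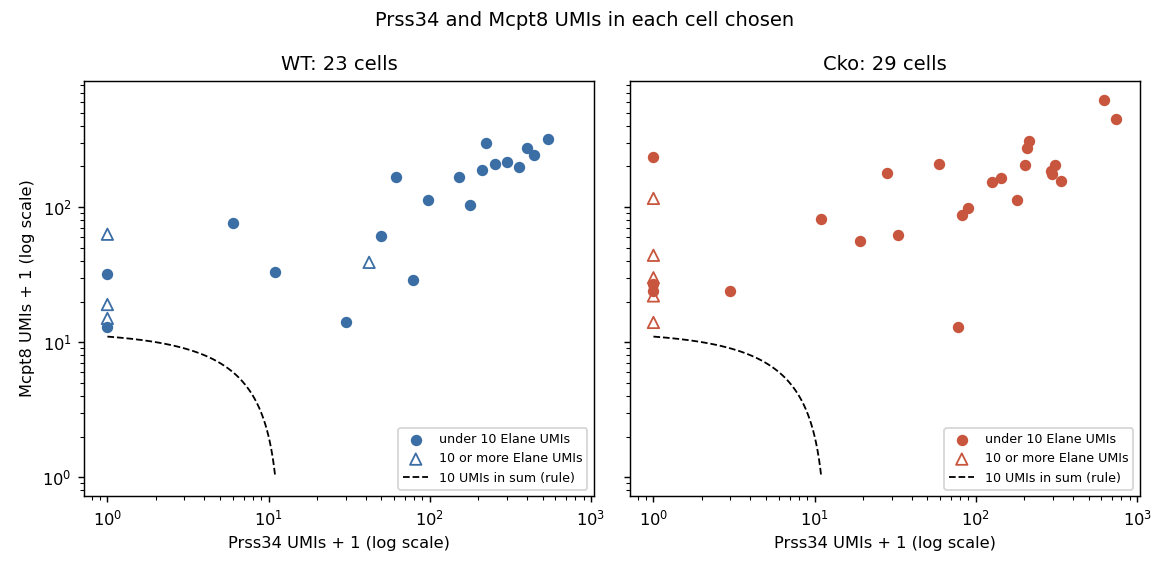
*Prss34* UMIs (x axis, log scale of UMIs + 1) against *Mcpt8* UMIs (y axis, log scale of UMIs + 1) in each of the 23 WT and 29 Cko cells; each point is 1 cell, open triangles are cells with at least 10 *Elane* UMIs, and the dashed line is a sum of 10 UMIs. The 13 cells at the left edge, 5 WT and 8 Cko, had no *Prss34* UMI, and 8 of them are open triangles.

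The other 7 basophil markers were found together in most of the chosen cells. At least 4 of them were detected in 17 of 23 WT and 23 of 29 Cko cells, and in 3 of 6248 other WT cells (0.0480%) and 4 of 3633 other Cko cells (0.110%). When each cell was thinned once to 3000 UMIs, 15 WT and 19 Cko cells still held 4 or more. Among the other cells with several of these markers, 1 in each library had 6, with 3 and 7 UMIs of the rule genes. The limit of 10 thus left out at least 1 cell with most of these markers in each library. The Cko cell was also among the cells with at least 10 UMIs of B cell genes.

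*Cpa3*, the granule carboxypeptidase, had 294 UMIs in 21 of the WT cells and 470 in 23 of the Cko cells, or 1390 (1236–1558) and 1695 (1545–1855) counts per 1000000 UMIs (CPM) against 3.19 and 5.33 CPM in the other cells. Per cell it ranged from 0 through a median of 11 to 35 UMIs in the WT and from 0 through 12 to 60 in the Cko. *Cpa3* was also found in outside cells with eosinophil genes. It had 332 and 421 CPM in the 6 WT and 6 Cko cells with at least 10 UMIs summed over *Prg2*, *Prg3* and *Epx*. *Ms4a2*, the β chain that amplifies the FcεRI signal, had 643 (540–761) CPM among WT cells and 454 (379–541) among Cko cells against 0.463 and 1.11 CPM in the other cells. It was found in 20 WT and 22 Cko cells, in 0 to 19 and 0 to 20 UMIs per cell. *Cd200r3*, a receptor that couples to the adaptor DAP12, had 307 and 339 CPM in 14 and 20 cells against 0.143 and 0.469 CPM outside.

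*Hdc*, which makes histamine from histidine, stood at 279 and 281 CPM (WT and Cko) and was found in 20 and 25 of them, against 15.2 and 24.6 CPM in the other cells. It was not particular to the chosen cells. In the 6 WT and 6 Cko outside cells with at least 10 UMIs summed over the eosinophil genes *Prg2*, *Prg3* and *Epx*, *Hdc* had 506 and 301 CPM. The transcription factor gene *Gata2* (6:88193891-88207032) had 369 and 270 CPM in 18 and 22 cells against 2.76 and 5.36 CPM. *Cyp11a1*, which begins steroid synthesis from cholesterol, had 189 and 198 CPM in 14 and 19 cells. Each of these genes was low per cell, with medians of 1 to 3 UMIs, so a 0 in a single cell may be a transcript that was not captured.

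*Fcer1a* (1:173221284-173227214), the chain that binds IgE, was detected in few of the WT cells. It was found in 3 of 23 WT cells (interval 2.78–33.6%) and 12 of 29 Cko cells (23.5–61.1%), and the intervals overlapped. The 3 WT cells held 31 UMIs with 21 of them in 1 cell, and the 12 Cko cells held 51 UMIs with 13 in the highest, so the levels were 147 and 184 CPM. Thinned to 3000 UMIs per cell, 2.47 WT and 10.4 Cko cells would be expected to show it. Outside the chosen cells the WT level was 0.0178 CPM and the Cko is listed at 0, and no cell with B cell genes had a UMI.

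A total of 284 genes reached 100 UMIs in the chosen cells of each library, and the 10 of them with the highest folds over the other cells were *Prss34*, *Mcpt8*, *Ms4a2*, *Cpa3*, *Ifitm1*, *Cd63*, *Ctsg*, *Calr*, *Srgn* and *Lgals1*. *Ifitm1*, an interferon-induced membrane protein, had 2813 CPM (WT) and 2225 CPM (Cko) against 16.7 and 31.7 outside, and was found in 22 and 26 cells. The tetraspanin *Cd63*, which reaches the surface of basophils when granules fuse, had 1830 and 1771 CPM, 10.3-fold and 5.43-fold above the other cells. *Csrp3*, a LIM-domain protein best known from muscle, was chosen after its values were seen. It fell just below the limit on UMIs with 96 in the WT cells and had 454 and 433 CPM against 1.09 and 1.70 CPM in the other cells.

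**Figure D2:**
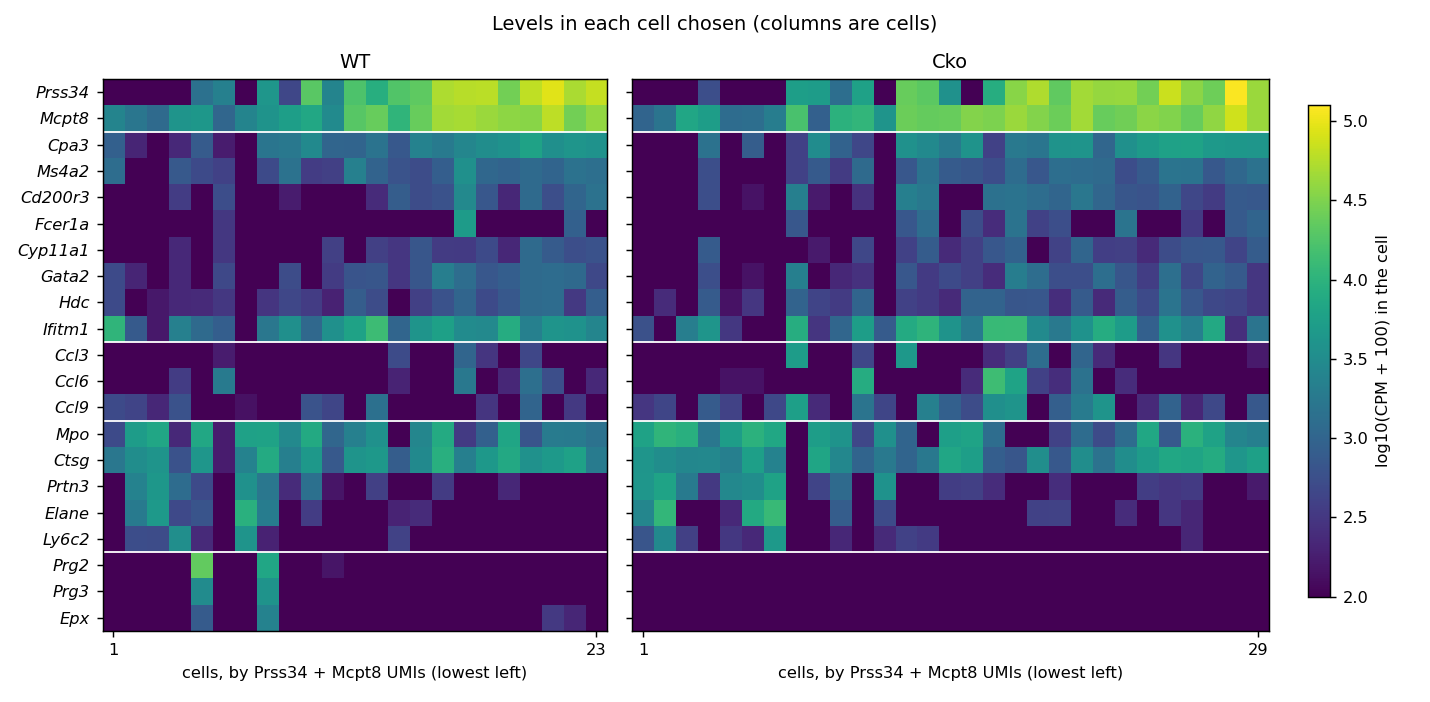
Levels of 21 genes (rows) in each chosen cell (columns, WT left and Cko right, ordered by the summed UMIs of *Prss34* and *Mcpt8* with the lowest at left), coloured by log10 of CPM in the cell plus 100. *Elane* and *Ly6c2* are high in a few cells at the left of both panels, where *Cd200r3*, *Cyp11a1* and *Gata2* are mostly at 0, and *Prg2*, *Prg3* and *Epx* are high together in 2 WT cells.

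The chosen cells were not of 1 kind. The 39 cells with *Prss34* UMIs (18 WT, 21 Cko) held at least 4 of the 7 markers in 15 WT and 21 Cko cells, and each of them had *Cpa3* and *Ms4a2*. Of the 13 cells without *Prss34* UMIs, 2 of 5 WT and 2 of 8 Cko cells held 4 or more. *Cpa3* was at 1960 and 3039 CPM (WT and Cko) in cells with *Prss34*, and was found in 3 of 5 WT and 2 of 8 Cko cells without it, with 6 and 44 UMIs. *Cd200r3* was at 429 and 664 CPM against 31.0 and 7.29. These splits were made after the values were seen and use no test.

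*Elane* was high in most cells without *Prss34* and in 1 cell with it. At least 10 *Elane* UMIs were found in 3 WT and 5 Cko cells without *Prss34* and in 1 WT and 0 Cko cells with it. Cells without *Prss34* had 5161 (WT) and 4813 (Cko) CPM of it, against 177 and 85.6 CPM in those with it and 12468 and 10204 CPM in the 661 WT and 558 Cko cells outside that had at least 10 *Elane* UMIs. *Prtn3*, the gene of the related protease 3, followed the same order, with 3007 and 3901 CPM without *Prss34* and 211 and 178 CPM with it. *Ly6c2*, a surface protein of monocytes and their progenitors, had 2123 and 1181 CPM against 34.0 and 28.5. Single cells weighed heavily on these levels in the cells without *Prss34*. For *Ly6c2*, 100 of the 137 WT UMIs and 100 of the 162 Cko UMIs were in 1 cell of each library. For *Elane*, 237 of the 333 WT UMIs were in 1 cell.

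The cells with high *Elane* were deeper by median, but the ranges of depth overlapped. For WT cells with high *Elane* the median was 13359 UMIs (range 9145 to 25775), and for Cko cells 21891 (14416 to 29179). Chosen cells with fewer than 10 *Elane* UMIs had medians of 7047 (WT) and 6677 (Cko). The deepest of those held 20647 (WT) and 22936 (Cko) UMIs, more than several of the cells with high *Elane*. None of the 52 was called a doublet, and the part of doublets or of free RNA in these cells was not tested. Of the 9 cells, *Gata2* was found in 1 of 4 WT and 1 of 5 Cko cells, *Ms4a2* in 1 and 0, and *Cd200r3* or *Fcer1a* in 0 and 1.

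Neighbours in expression space gave the same split. With *Prss34* and *Mcpt8* left out of the genes used, the 20 nearest neighbours of each of the 39 cells with *Prss34* held a median of 20 chosen cells, and 36 of the 39 had 10 or more. For the 13 cells without *Prss34* the median was 1, with 2 cells at 10 or more and 5 at 0, and a median of 15 neighbours were cells with at least 10 *Elane* UMIs. Of the 20 neighbours, a median of 10 came from the same library for the WT cells with *Prss34* and 14 for the Cko cells with it.

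In the WT, 2 chosen cells carried eosinophil genes. *Prg2*, the eosinophil major basic protein, had 167 UMIs in 1 of them and 67 in the other. *Prg3*, its homolog, had 23 and 38, *Epx*, the eosinophil peroxidase, 5 and 23, and *Cebpe*, a transcription factor of late granulocyte development, 7 and 14. The same cells had 10 and 41 *Prss34* UMIs and 32 and 38 *Mcpt8* UMIs. All 29 Cko cells were at 0 for *Prg2*, *Prg3* and *Epx*. Cells outside the rule with eosinophil genes numbered 6 in each library, and they are under the limit on *Prss34* and *Mcpt8* by definition.

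Of the 20 listed genes of granule proteases and their inhibitors, 6 were at least 4-fold higher in the WT cells (*Prss34*, *Mcpt8*, *Cpa3*, *Ctsg*, *Cst7* and *Srgn*) and 5 in the Cko cells (the same without *Srgn*), while *Ctss* and *Ctsh* were at least 4-fold lower in the Cko. The share of all genes at least 4-fold lower was 0.891% in the WT and 2.2% in the Cko. Cathepsin G (*Ctsg*) had 3050 and 3581 CPM and was found in 23 WT and 28 Cko cells. It was near the level of the outside cells with high *Elane* (3330 and 3270 CPM), and in the cells with *Prss34* it stood at 3266 and 4024 CPM. Serglycin (*Srgn*), the proteoglycan that packs granule proteases, had 1783 and 2175 CPM and was found in all 52 cells.

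The genes of the IgE receptor and its signalling had 13 of 16 members listed in each library, and *Fcer1a*, *Ms4a2*, *Lat* and *Lat2* were at least 4-fold higher in both. *Fcer1g*, the γ chain shared with other Fc receptors, was found in all 52 cells, with 2 to 26 UMIs per cell in the WT and 3 to 31 in the Cko. Its 1314 and 1508 CPM compare with 400 and 1115 CPM in the other cells. The adaptor *Lat2* had 147 and 195 CPM against 8.31 and 17.2 outside. Of the histamine list, 2 of 6 genes are listed in each library and *Hdc* was the one at least 4-fold higher.

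Receptors for basophil growth factors were low but present. *Il3ra*, the α chain of the interleukin-3 receptor, had 21 UMIs in 15 WT cells and 29 UMIs in 18 Cko cells, at 99.3 and 105 CPM against 7.22 and 17.2 outside. *Csf2rb*, the β chain shared by several of these receptors, had 104 and 82.9 CPM. *Crlf2*, part of the receptor for thymic stromal lymphopoietin, had 94.6 and 177 CPM against 21.9 and 46.2. *Alox5*, which starts leukotriene synthesis, had 94.6 and 101 CPM against 6.90 and 21.6. On the surface list *Itga2b*, *Itgb7* and *Cd200r1* (not listed in the WT) passed 4-fold in the Cko, and *Ifitm6* was at least 4-fold lower in both libraries.

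Of the transcription factors, *Gata2*, *Cebpa*, *Runx1* and *Ikzf2* were at least 4-fold higher in both libraries and *Lmo4* in the WT. *Cebpa*, a factor of granulocyte and monocyte fate, had 298 and 234 CPM against 9.39 and 23.6 outside and was found in 20 and 24 cells. *Lmo4*, a LIM-only cofactor, had 667 CPM among WT cells and 382 among Cko cells. It ranged from 0 to 38 UMIs per cell in the WT, with 27.0% of its UMIs in 1 cell. *Ikzf2*, which encodes Helios, had 66.2 and 68.5 CPM in 10 and 14 cells.

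*Ccl3*, *Ccl6* and *Ccl9*, genes of CC chemokines that attract leukocytes, were at least 4-fold higher in the chosen cells of both libraries. *Ccl3* was found in 5 WT and 10 Cko cells, *Ccl6* in 8 and 10, and *Ccl9* in 11 and 22. Their sum per cell was 0, 2 and 25 UMIs (lowest, median, highest) in the WT and 0, 5 and 118 in the Cko. *Mpo*, the myeloperoxidase gene of the promyelocyte, had 0, 18 and 152 UMIs in the WT and 0, 30 and 230 in the Cko. Cells high in one were mostly low in the other. In the WT, 3 cells had at least 10 chemokine UMIs and 15 at least 10 *Mpo* UMIs, with 0 cells in both sets and 5 in neither. In the Cko there were 9 and 16, with 2 in both and 6 in neither.

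The same held among the cells with *Prss34*. There the counts were 3 chemokine cells, 12 *Mpo* cells and 0 in both sets in the WT, and 8, 8 and 1 in the Cko. Chemokine cells with *Prss34* were shallower, with a median of 5535 UMIs in the WT and 4967 in the Cko. The *Mpo* cells with *Prss34* had 7742.5 and 8188.5. Over all chosen cells the medians were 5535 and 5554 in chemokine cells against 8062 and 11482.5 in *Mpo* cells. The limits of 10 UMIs were set after the values were seen.

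**Figure D3:**
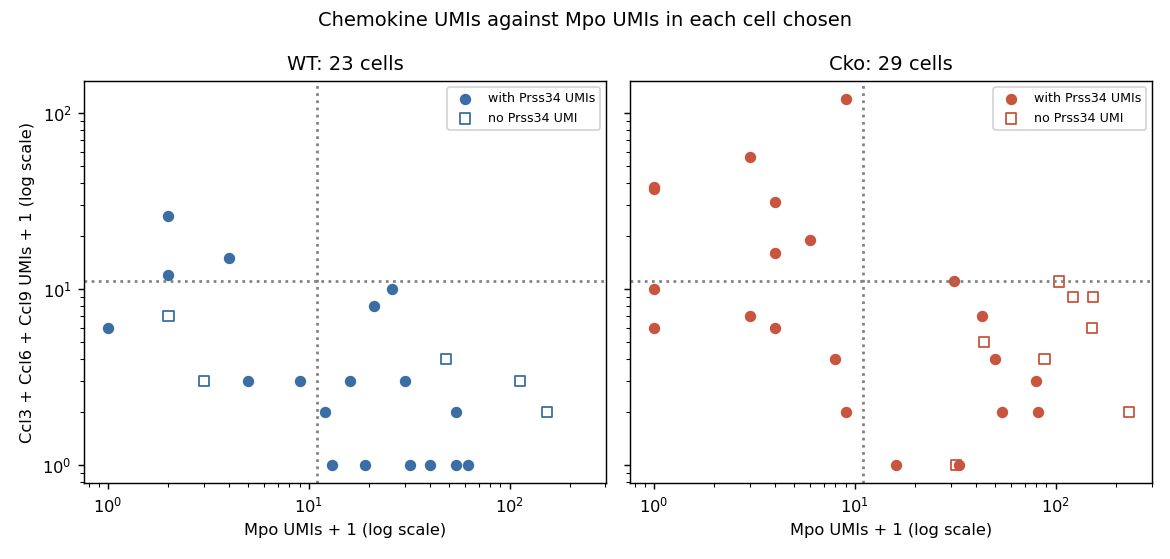
*Mpo* UMIs (x axis, log scale of UMIs + 1) against the summed UMIs of *Ccl3*, *Ccl6* and *Ccl9* (y axis, log scale of UMIs + 1) in each chosen cell; filled points are cells with *Prss34* UMIs, open squares those without, and dotted lines mark 10 UMIs. The upper right field holds 0 WT and 2 Cko cells.

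Summed over the chosen cells, cell cycle genes were somewhat below the level of the rest of the marrow. Of 16 listed genes, 0 were 4-fold higher or lower in either library. Over all listed genes, 1.36% (WT) and 1.16% (Cko) were higher and 0.891% and 2.2% lower. The summed level of the 16 genes was 3863 (WT) and 2928 (Cko) CPM, against 5098 and 3465 CPM outside. Per cell it ran from 267 through a median of 4117 to 11382 CPM in the WT and from 0 through 1461 to 10149 in the Cko, so the ranges overlapped and the medians lay apart. The medians of the other cells were 4778 (WT) and 2604 (Cko) CPM. In chosen cells with *Prss34* the medians were 4716 (WT) and 1163 (Cko) CPM, against 2554 and 2747 in those without it.

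Targets of the factors that S1P activates were measured sparsely. Of the chaperones linked to ATF6, 11 of 12 are listed in each library, and *Pdia4* in both and *Calr* in the WT were at least 4-fold higher. Summed, they had 3773 (WT) and 3527 (Cko) CPM against 1416 and 1417 CPM in the other cells. The SREBP targets had 10 genes in the WT table and 6 in the Cko table, and 0 of these passed 4-fold. *Mbtps1* itself (8:119508156-119558735) had 7 UMIs in the WT cells and 10 in the Cko cells, 33.1 and 36.1 CPM, against 31.9 and 31.1 CPM outside. The 3′ reads lie outside the floxed exon 2, so this level does not check the deletion, and *Sp7*, the gene of osterix, had 0 UMIs in the WT cells and is not listed in the Cko.

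All 7 T and NK cell genes were at 0 in the chosen cells of both libraries. Summed, they were also low outside, at 19.0 (WT) and 110 (Cko) CPM. At that level 0 of them in the WT and 1 in the Cko could be called at least 4-fold lower. Of 9 neutrophil granule genes, 7 were at least 4-fold lower in WT cells and 9 in Cko cells, against 0.891% and 2.2% of all listed genes. Their summed level was 1296 and 1796 CPM against 49475 and 130073 CPM outside. The *Stfa* genes, cysteine protease inhibitors of the stefin A family, had 5 and 20 UMIs in all, 23.6 and 72.1 CPM against 516 and 3460 CPM outside, with 8 of 10 genes listed in each library. Of 5 promyelocyte genes, only *Ctsg* was at least 4-fold higher in the chosen cells, in both libraries.

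Hemoglobin transcripts differed between the libraries. In the WT cells they were 0.195% to 49.8% of a cell's UMIs with a median of 0.324%, and 4 cells held at least 1% (49.8%, 11.5%, 3.73% and 1.28%). In the Cko cells they were 0.0329% to 0.206% with a median of 0.0720%, and no cell reached 1%. The libraries as a whole differed the same way, since 50.2% of WT cells and 13.2% of Cko cells held at least 1%. Depth was a median of 6977 UMIs per cell in the WT library and 7440 in the Cko. Of 28 barcodes present in both libraries, 1 belonged to a chosen Cko cell.

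The chosen cells made up a larger share of the Cko library than of the WT library. They were 0.367% (0.233–0.550) of WT cells and 0.792% (0.531–1.14) of Cko cells, a ratio of 2.16 (1.21–3.91). Because cells rich in hemoglobin take a different part of each library, the share was also taken over cells with under 1% hemoglobin UMIs. There it was 19 of 3126 (0.608%) and 29 of 3177 (0.913%), a log2 ratio of 0.59 whose interval, 0.814 to 2.83 as a ratio, includes 1. With a *Prss34* UMI required, 18 WT and 21 Cko cells remained and the interval of the ratio was 1.01 to 3.98 over all cells, and without the cell of the shared barcode it was 2.08 (1.16–3.79). Between 1 library and 1 library the spread between mice is unknown, so the difference cannot be set against it.

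Other cell groups moved in the same libraries. Outside cells with at least 10 *Elane* UMIs were 10.5% of the WT and 15.2% of the Cko, a ratio of 1.45 (1.29–1.62) over all cells and 0.864 (0.769–0.971) over cells with under 1% hemoglobin. Cells with 3 to 9 UMIs of the rule genes were 0.191% and 0.655%, a ratio of 3.42 (1.65–7.52), and 1.97 (0.947–4.32) over the cells with under 1% hemoglobin.

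**Figure D4:**
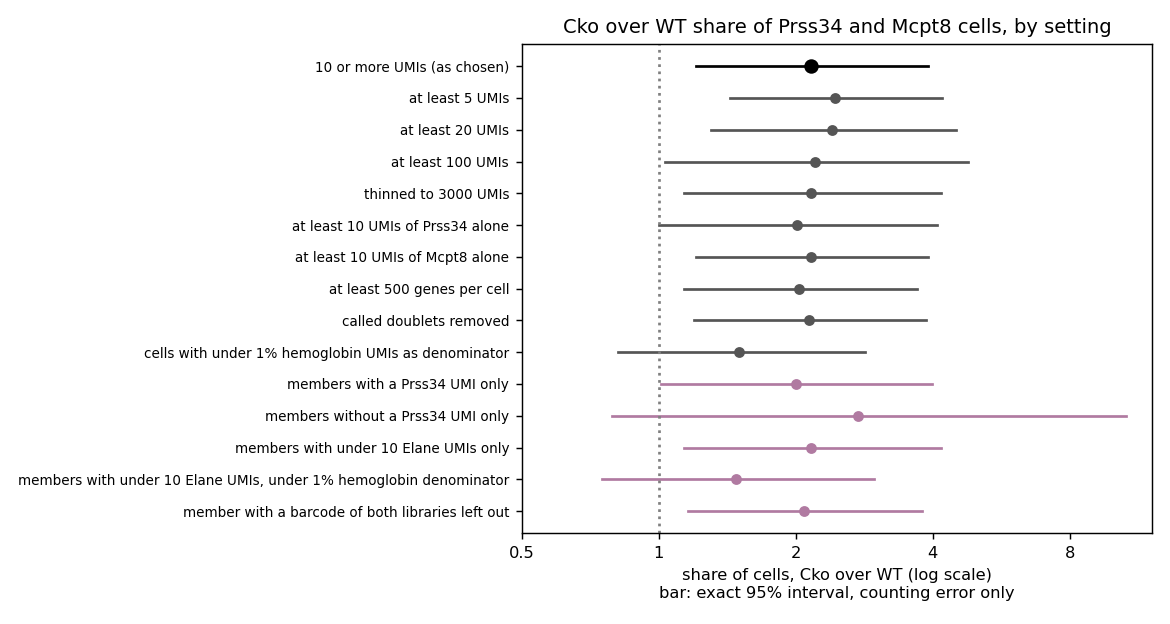
Ratio of the share of chosen cells in the Cko to that in the WT (x axis, log scale; dotted line at 1) for each limit, filter and denominator (rows); points are ratios and bars exact 95% intervals for counting error only, with mauve for settings chosen after the data were seen. The point lies right of 1 in every row shown, at 2.16 as chosen, and the bar reaches 1 or below for both rows with the hemoglobin denominator and for the cells without *Prss34*.

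Most genes differed by less than 2-fold between the chosen cells of both libraries. Of 628 genes with at least 100 UMIs over both, 17 (2.71%) were at least 2-fold higher in the Cko cells and 16 (2.55%) at least 2-fold lower, and the median log2 ratio was 0.02. Of the 9 basophil markers listed, 7 were measured at this depth, and 0 of them differed 2-fold. The 5 of these that the choice did not use were *Cpa3* at 1.22 (1.05–1.42), *Cd200r3* at 1.10 (0.796–1.54), *Hdc* at 1.01 (0.710–1.44), *Gata2* at 0.733 (0.527–1.02) and *Ms4a2* at 0.707 (0.550–0.907). Without the 4 WT cells that held at least 1% hemoglobin all 5 were lower in the Cko, at log2 ratios of -0.11 (*Cd200r3*) to -0.91 (*Ms4a2*). The summed ratio of the IgE receptor list was 1.06 (0.942–1.18), and 0.831 (0.737–0.937) without those 4 cells, so its direction turned with them.

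*Ccl9* (11:83572919-83578636) had the highest ratio. It had 180 CPM in 11 of 23 WT cells and 649 CPM in 22 of 29 Cko cells, a ratio of 3.61 (2.53–5.27), with 0 to 9 UMIs per WT cell and 0 to 29 per Cko cell. The ranges overlapped, and the cells above 9 UMIs were all Cko. Summed over the other cells of each library, the ratio was 3.75. The libraries differ in make-up, since 50.2% of WT cells and 13.2% of Cko cells held at least 1% hemoglobin UMIs. Whether the ratio is particular to the chosen cells was therefore not tested. In the outside cells with high *Elane* the ratio was 1.40.

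*Ccl6* (11:83587882-83593087), which lies next to *Ccl9*, had 213 (WT) and 624 (Cko) CPM, a ratio of 2.93 (2.10–4.17). It was found in 8 and 10 cells, and 53.3% of its UMIs in the WT and 54.3% in the Cko came from 1 cell. Its ratio in the other cells was 4.37. *Ccl3* had 56.7 and 170 CPM in 5 and 10 cells. The summed ratio of the cytokine and chemokine list was 2.59 (2.13–3.16) in the chosen cells and 2.31 in the others.

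*Serpinb1a*, an inhibitor of neutrophil serine proteases, was found in 13 of 23 WT cells and in all 29 Cko cells. It had 0, 1 and 9 UMIs per cell (lowest, median, highest) in the WT and 1, 3 and 16 in the Cko, or 180 and 537 CPM, a ratio of 2.99 (2.08–4.39). Thinned to 3000 UMIs, 7.69 WT (33.4%) and 23.2 Cko cells (80.1%) would be expected to show it. The shares were 23.5% and 26.1% in the cells with B cell genes. The ratio was 2.32 in the other cells and 1.12 in those with high *Elane*. It was the only gene of the granule list that differed 2-fold among the 8 measured at this depth.

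The other genes at the upper end were *Gm11808* at 3.61, *Rpl9-ps6* at 3.38, *Rsrp1* at 3.24 and *Eno1* at 3.01, and their ratios in the other cells were 1.80, 2.59, 2.36 and 2.04. *Gm11808* and *Rpl9-ps6* are gene copies whose reads may be shared with a parent gene. At the lower end stood *Prg2* and 4 hemoglobin genes. *Prg2* had 235 UMIs in 3 WT cells and 0 in the Cko cells, a ratio of at most 0.00974 against a floor of 3 counts over the group, and 234 of its UMIs were in the 2 WT cells with eosinophil genes. The ratios of *Hba-a1*, *Hba-a2*, *Hbb-bt* and *Hbb-bs* were 0.0125 to 0.0185, and 5 of the 16 genes lower in the Cko belonged to the erythroid list. Without the 4 WT cells that held at least 1% hemoglobin, *Hba-a1* was at a log2 ratio of -2.50 and *Hbb-bs* at -2.01.

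Values were also taken over the 16 WT and 24 Cko cells with under 10 *Elane* and under 1% hemoglobin UMIs, a choice made after the values were seen. There *Ccl6* had a ratio of 5.25 (3.29–8.81), *Ccl9* 3.76 (2.45–5.99) and *Serpinb1a* 3.39 (2.04–5.95). *Prtn3* was at 2.52 (1.58–4.17) and *Elane* at 1.02 (0.417–2.64). Of the 95 *Prtn3* UMIs in the Cko cells, 62 were in 1 cell, which had no *Prss34* UMI, so the *Prtn3* ratio rests mostly on that cell. Lower in the Cko cells were *Ms4a3*, a membrane protein of granulocyte and monocyte progenitors, at 0.407 (0.283–0.581), *Lmo4* at 0.452 (0.342–0.594) and *Ms4a2* at 0.657 (0.507–0.852). The direction of each of these was that of all 52 cells.

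The 18 WT and 21 Cko cells with *Prss34* UMIs, which include the 2 WT cells with eosinophil genes, gave other values for several genes. *Ccl9* had a ratio of 5.81 (3.81–9.19), *Ccl6* 4.15 (2.95–5.94) and *Serpinb1a* 4.61 (2.81–7.92), and *Ms4a3* was again lower at 0.473 (0.333–0.664). *Ms4a2* was at 1.02 (0.791–1.32) and *Gata2* at 1.02 (0.727–1.43), nearer to 1 than over all 52 cells. *Cpa3* at 1.55 (1.33–1.81) and *Cd200r3* at 1.55 (1.11–2.17) lay further from 1. *Prtn3* and *Elane* turned to 0.846 (0.479–1.48) and 0.484 (0.222–0.994), from 31 and 26 UMIs in the WT and 25 and 12 in the Cko.

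Of the other lists by role, the cell cycle genes had a summed ratio of 0.758 (0.687–0.836) in the chosen cells and 0.680 in the others, the ATF6-linked chaperones 0.935 (0.850–1.03, and 0.769 without the hemoglobin-bearing cells) and the transcription factors 0.852 (0.759–0.957). The SREBP targets listed in both libraries had 52 UMIs in the WT and 23 in the Cko cells, a ratio of 0.337 (0.197–0.561), and 0.591 in the other cells. Granule genes were at 1.06 (1.03–1.09), and at 0.788 without the hemoglobin-bearing cells, so their direction turned with 4 WT cells. Of the 7948 WT and 11065 Cko UMIs of that list, 6276 and 8371 were of *Prss34* and *Mcpt8*. Its summed ratio therefore mostly describes the genes of the choice and is not a result.

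**Figure D5:**
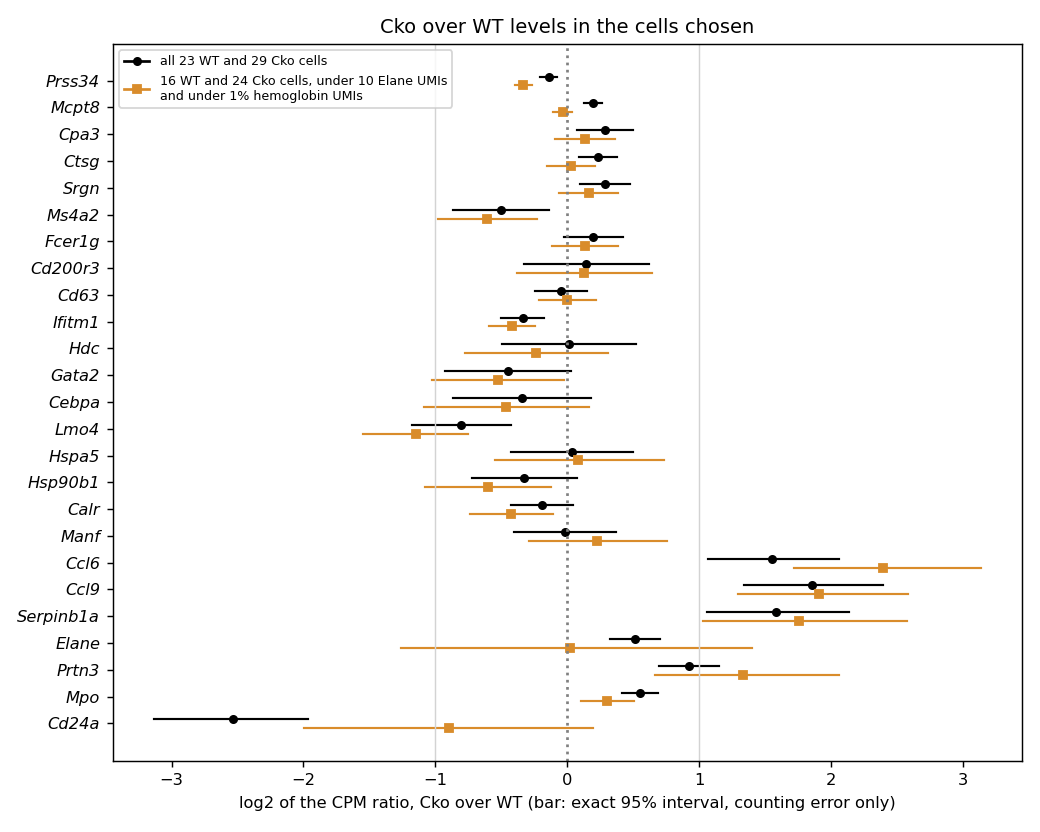
Log2 ratio of CPM in the Cko to that in the WT (x axis; dotted line at 0, grey lines at 2-fold) for 25 genes (rows), over all 52 chosen cells (black circles) and over the 16 WT and 24 Cko cells with under 10 *Elane* and under 1% hemoglobin UMIs (orange squares); bars are exact 95% intervals for counting error only. *Ccl6*, *Ccl9* and *Serpinb1a* lie right of 1 in both sets, and *Prss34*, *Mcpt8*, *Cpa3* and *Cd63* lie near 0.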

How the data were processed

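Single-cell RNA libraries of BMCs were made with the 10x Chromium Single Cell 3′ v2 kit from 1 sample per genotype. The authors' deposited tables hold UMI counts per gene and cell, made with Cell Ranger (version not given in the sources used here) on GRCm38, per the submitters' processing notes. A total row and a sum column were dropped, 1 repeated symbol was summed, and cells with at least 200 genes were kept, with 56318434 (WT) and 34410445 (Cko) UMIs. Levels are CPM over the summed cells of a class. Folds over other cells needed at least 10 UMIs and Cko/WT ratios at least 100. Exact binomial (Clopper-Pearson) and Poisson intervals were taken with scipy 1.17.1, and the ratio script was tested on simulated data. Scrublet (scanpy 1.11.5) called 122 WT and 38 Cko doublets, which were kept. Neighbours used 30 principal components of 2000 genes. Named genes were *Prss34*, *Mcpt8*, the lists, the 10 highest folds over other cells and the 5 highest and 5 lowest Cko/WT ratios. The cells and lists were chosen with earlier results of these data known. Promoters are from RefSeq and gene positions from GENCODE M21.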

Additional observations from a re-analysis of the deposited data

How the results depend on the processing

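No paired analysis was possible because each genotype is 1 library. The Cko/WT share of the chosen cells kept its direction under all alternatives run, with log2 ratios of 0.56 to 1.45 against 1.11, and the interval included no change where the denominator was cells with under 1% hemoglobin and for the cells without *Prss34*. The count of genes at least 2-fold higher in the Cko cells was 17, and became 7 in cells with at least 100 UMIs of the rule genes, 3 for genes with at least 300 UMIs, 9 in cells with under 10 *Elane* UMIs and 9 in those that also had under 1% hemoglobin. The count of genes lower was 16, and became 6, 5 and, without hemoglobin-bearing cells, 7, and 6 in cells with under 10 *Elane* UMIs and under 1% hemoglobin. Fewer cells or genes were tested in each of these. Of 57 genes followed, the 14 that differed 2-fold kept their direction in every alternative run, and 25 of the 43 others turned in at least 1. Alternatives on *Prss34*, *Elane*, the shared barcode and the highest cell were chosen after seeing the data. Depth limits what a 0 in a single cell shows, since most markers had medians of a few UMIs. Genes below the listing level in every cell are not analysed here.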
